A study of Mus musculus with 30 samples.

Results

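The constitutive proteasome genes of the mouse were described in spleen and lymph node of mice with and without lymphoma. They were taken by symbol: every gene with a probe set annotated to a single symbol of the form Psm, a letter from a to g and a number, apart from the immunoproteasome genes Psmb8, Psmb9 and Psmb10. The rule used no measured value and found 47 genes of the 19938 with a level. Total RNA was hybridised to 30 Affymetrix Mouse Gene 1.0 ST arrays, one for spleen and one for lymph node of each of 15 mice. The lymphoma group held 6 Tg26 mice with lymphoma, the asymptomatic group 6 Tg26 mice without it, and the control group 3 FVB/N mice without the transgene, which gave 6, 6 and 3 arrays per tissue. Tg26 mice carry an HIV-1 provirus (pNL4-3) from which part of gag-pol is missing, so that no infectious virus is made. Per the labels the transgenic mice were heterozygous and bred from heterozygous parents with skin lesions, about 15% of Tg26 mice develop lymphoma, all mice were on the FVB/N background and all were killed at 5 to 12 months of age. The labels give neither age nor sex for single mice, nor the cells in which the provirus is expressed. The labels also name a batch: mice 1 to 3 of every state were run in batch A, and mice 4 to 6, all of them Tg26, in batch B, which has no FVB/N mouse. The spleen array of lymphoma mouse 4 carries a status code that the other arrays use for FVB/N. It was kept in the lymphoma group because its title and description place it there.

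The proteasome is the large protease that degrades proteins marked with ubiquitin. Its core particle is a barrel of alpha and beta subunits with the cutting sites inside, and a regulatory particle, made of a base with ATPases and a lid, binds the ubiquitin chain, removes it and threads the protein into the core. Dividing lymphocytes and plasma cells are known to depend on it strongly, and in lymphoid tissue interferon replaces the cutting subunits of the core by those of the immunoproteasome and induces an activator that binds the core in place of the regulatory particle.

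Of the 47 genes, 8 encode core alpha subunits, 8 core beta subunits, 6 ATPases of the base, 3 other subunits of the base, 8 subunits of the lid, 5 activators or an inhibitor of the core (Psme1 to Psme4 and Psmf1) and 7 assembly chaperones (Psmg1 to Psmg4, Psmd5, Psmd9 and Psmd10). The other 2, Psmc3ip and Psme3ip1, encode partners of a subunit and not proteasome subunits, and fit the rule only by their names. Psma8 and Psmb11, a testis form and a thymus form of core subunits, had levels of 5.24 to 6.22 and 4.58 to 6.54 over all arrays, and they were left out where the 14 ubiquitous core genes are counted. All 47 genes had a level on every array and none was filtered out. Levels are log2 expression values of whole tissue, so fewer cells of a type and less RNA per cell cannot be told apart. For 5 genes (Psma3, Psma5, Psmb3, Psmc1 and Psmd2) the annotation lists more than 1 probe set, some of which may read processed copies of the gene, and the one with the highest mean level was used.

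Promoter windows of 250 bases before and 50 after the start site were held by RefSeq (GRCm38.p6) for 39 of the 47 genes, 43 windows in all. The antioxidant response element core (letters TGACNNNGC, either strand), to which Nfe2l1 and related factors bind at proteasome genes, was in 6 of the 43 windows (14.0%), against 12.4% of all 32851 windows. A CCAAT box (letters CCAAT, either strand), a general promoter element, was in 15 of 43 (34.9%), against 37.4% of all. The first bases of the interferon-stimulated response element (letters GAAANNGAA, either strand), a motif chosen after the levels had been seen, were in 7 of 43 (16.3%), against 8.56% of all. A match is a description of letters and not a site of binding. The windows with this motif belong to Psme1, Psmb3, Psmb4, Psmc2, Psmd4, Psmd9 and Psmg4, and neither window of Psme2, the partner of Psme1, holds it. The motifs were searched separately and may overlap. Psma6 has a second window (chr12:55398575-55398874, plus strand), which is not shown and holds none of the 3 motifs. The 5 windows shown belong to Psma6 and Psmc1, called higher with lymphoma in both tissues, to Psmd12, called higher in lymph node, to the cutting subunit Psmb5, and to the interferon-inducible activator Psme1. Capitals mark the motif, read on either strand, which is the CCAAT box in Psma6 (chr12:55383972-55384271, plus strand) and Psmc1 (chr12:100109952-100110251, plus strand), the antioxidant response element core in Psmb5 (chr14:54617946-54618245, minus strand) and Psmd12 (chr11:107479278-107479577, plus strand), and the interferon motif in Psme1 (chr14:55578244-55578543, plus strand).
Psma6: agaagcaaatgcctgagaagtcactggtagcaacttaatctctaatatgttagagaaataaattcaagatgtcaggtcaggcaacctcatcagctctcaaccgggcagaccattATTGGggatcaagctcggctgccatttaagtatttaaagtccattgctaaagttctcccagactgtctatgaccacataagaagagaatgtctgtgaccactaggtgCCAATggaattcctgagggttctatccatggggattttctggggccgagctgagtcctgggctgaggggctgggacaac
Psmb5: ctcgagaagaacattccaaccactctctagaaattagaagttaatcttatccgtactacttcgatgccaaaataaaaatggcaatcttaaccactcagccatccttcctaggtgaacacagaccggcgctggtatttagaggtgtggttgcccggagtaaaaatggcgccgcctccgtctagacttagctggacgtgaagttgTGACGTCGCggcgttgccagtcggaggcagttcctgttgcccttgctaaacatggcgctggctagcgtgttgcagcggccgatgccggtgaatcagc
Psmc1: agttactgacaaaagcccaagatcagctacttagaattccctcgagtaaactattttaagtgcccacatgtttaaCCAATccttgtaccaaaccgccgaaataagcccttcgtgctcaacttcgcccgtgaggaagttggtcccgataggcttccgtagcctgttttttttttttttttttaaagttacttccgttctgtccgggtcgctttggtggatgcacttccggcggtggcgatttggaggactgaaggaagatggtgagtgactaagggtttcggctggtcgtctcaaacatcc
Psmd12: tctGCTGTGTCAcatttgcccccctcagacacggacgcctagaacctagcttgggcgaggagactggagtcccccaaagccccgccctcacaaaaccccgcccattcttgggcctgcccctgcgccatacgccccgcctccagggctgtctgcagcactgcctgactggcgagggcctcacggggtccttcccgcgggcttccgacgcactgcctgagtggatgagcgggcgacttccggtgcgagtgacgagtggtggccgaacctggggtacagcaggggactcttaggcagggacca
Psme1: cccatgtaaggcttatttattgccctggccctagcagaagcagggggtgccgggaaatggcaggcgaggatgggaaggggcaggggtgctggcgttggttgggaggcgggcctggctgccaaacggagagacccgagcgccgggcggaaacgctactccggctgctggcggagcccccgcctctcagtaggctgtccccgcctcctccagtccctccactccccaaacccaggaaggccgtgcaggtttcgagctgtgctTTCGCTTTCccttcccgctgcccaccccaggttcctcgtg

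Marker genes of the tissues bear on every comparison. The mean level of 15 proliferation genes ran over 9.14 to 10.37 in lymphoma spleens, 7.68 to 8.33 in asymptomatic spleens and 7.93 to 8.56 in FVB/N spleens, and over 9.64 to 10.28 in lymphoma, 7.72 to 8.33 in asymptomatic and 7.92 to 8.42 in FVB/N lymph nodes. Precursor B cell genes (8) ran over 9.33 to 9.93 in lymphoma spleens and 9.71 to 10.09 in lymphoma nodes, against at most 7.44 elsewhere, while the mean of the 7 T cell genes was lower in every lymphoma array than in any other array. Lymph node markers (4) reached 7.33 to 8.97 in asymptomatic nodes and 7.40 to 8.91 in FVB/N nodes but only 5.92 to 7.15 in lymphoma nodes, against 5.67 to 6.01 in lymphoma spleens. The mean of the B cell genes (4) ran over 10.02 to 10.97 in lymphoma, 11.06 to 11.68 in asymptomatic and 11.60 to 11.61 in FVB/N spleens, and overlapped between all states in the nodes. This mean hides genes that moved in opposite directions. Against asymptomatic mice, group means were higher with lymphoma for 1 of the 4 in spleen and for 3 of the 4 in lymph node. Genes of the spleen red pulp (5) ran over 6.00 to 9.23 in lymphoma, 9.05 to 9.38 in asymptomatic and 7.31 to 7.82 in FVB/N spleens, and macrophage genes (5) over 7.16 to 9.59 in lymphoma, 9.00 to 9.46 in asymptomatic and 8.16 to 8.27 in FVB/N spleens. Genes of exocrine pancreas stood out in the lymph nodes of asymptomatic mice 5 and 6 and the spleens of asymptomatic mice 4 and 5, and genes of salivary gland, fat or muscle in 7 node arrays (asymptomatic mice 2 to 5, FVB/N mice 2 and 3 and lymphoma mouse 5). The part of cell division and cell types in the results on the proteasome was not tested.

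Many proteasome probe sets also differed between the batches. With the groups held fixed, 15 of the 47 genes stood more than 0.5 log2 units apart in batch B and batch A, against 10.4% of all genes, and 6 stood more than 1 unit apart, against 1.28% of all genes. The difference, batch B minus batch A, was -2.36 log2 units for Psmb5 and 1.28 for Psmb1, so the groups of 6 are spread widely for these genes and the 3 FVB/N mice match batch A only. Differences were estimated in 1 limma fit over all arrays with 6 surrogate variables, a method that the series' design text names (fitted differences, log2, with their standard errors, SE). A gene was called at an adjusted p under 0.05 over all 19938 genes. This fit held no batch term, and how far the surrogate variables took up the batch was not tested. Plain differences of group means are given as measured differences, and within batches where they matter.

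The first comparison asked how the proteasome genes of mice with lymphoma stand against those of asymptomatic Tg26 mice. Of the 17 base and lid genes of the regulatory particle, 5 were called higher with lymphoma in spleen and 12 in lymph node, and of the 14 ubiquitous core genes 2 in each tissue. Both genes of the interferon-inducible activator, Psme1 and Psme2, were called lower in both tissues, and not called without surrogate variables. In spleen 8 of 47 genes were called higher, against 8.58% of all genes, and 2 lower, against 7.25%. In lymph node 16 were called higher, against 11.6% of all genes, and 2 lower, against 12.5%. The median fitted difference over the 47 genes was 0.17 in spleen and 0.26 in lymph node, against -0.03 and -0.02 over all genes. The median measured difference was 0.30 in spleen and 0.31 in lymph node, against -0.02 and 0.07 over all genes. The groups of 6 did not overlap, with lymphoma higher, for 8 of the 47 genes in spleen (4.59% of all genes) and for 3 in lymph node (5.04% of all). No proteasome gene had all lymphoma arrays below all asymptomatic arrays (4.96% of all genes in spleen and 5.81% in lymph node). The median fitted difference was 0.25 in spleen and 0.43 in lymph node over the 17 base and lid genes, and 0.19 and 0.26 over the 14 core genes. The median measured differences lay closer, at 0.41 and 0.39 for base and lid and 0.36 and 0.30 for core. Within batch A they were 0.55 in spleen and 0.35 in lymph node for base and lid, against 0.62 and 0.12 for core. Within batch B they were 0.29 and 0.39, against 0.05 and 0.47. The order of these classes thus changed with batch and tissue. Measured differences of the base and lid genes were above 0 within each batch and each tissue for 16 of 17, Psmd4 being the exception, and those of the core genes for 7 of 14. The share of all genes was not counted in this way, and the tissues come from the same mice. With the batches pooled, 8979 of all 19938 genes had a measured difference above 0 in spleen and 11855 in lymph node.

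**Figure D1:**
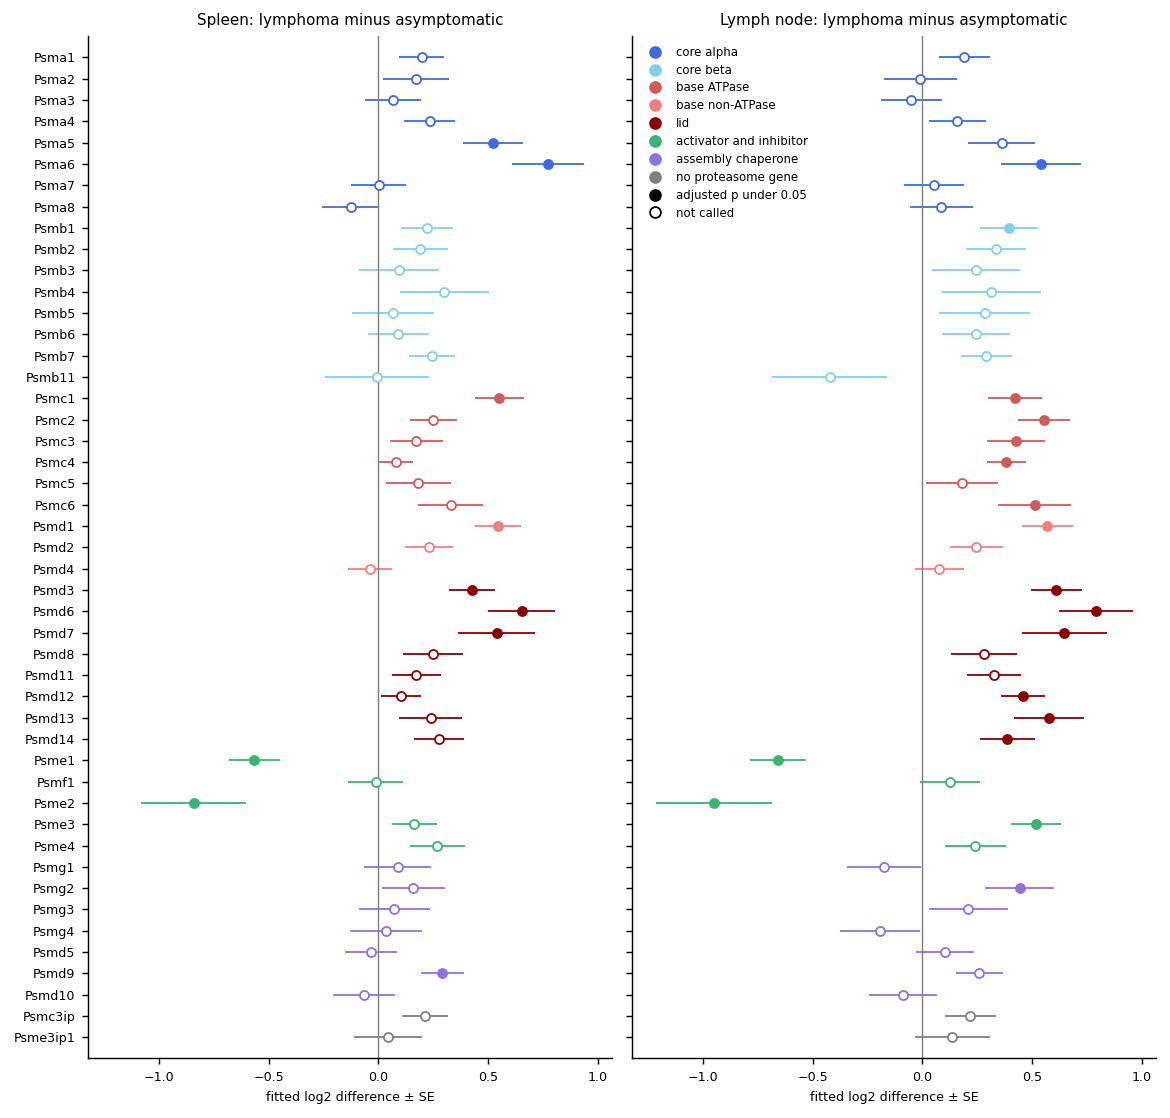
Fitted log2 difference (x axis, lymphoma minus asymptomatic, with its SE as bars) for each of the 47 genes (rows, coloured by class) in spleen on the left and lymph node on the right. Filled points passed an adjusted p of 0.05: 5 base and lid genes in spleen and 12 in lymph node lie to the right of 0, and Psme1 and Psme2 lie to the left in both tissues.

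The counts depended on the arrays and on the handling of batch. In spleen they ran from 5 genes called without lymphoma mouse 1, against 11.6% of all genes, to 27 without lymphoma mouse 5, against 25.5%, and were 20, 18, 15 and 22 without lymphoma mouse 2 or 4 or asymptomatic mouse 5 or 6, against 19.8% to 21.7%. In lymph node they were 4, 6 and 9 without asymptomatic mouse 4, lymphoma mouse 1 and asymptomatic mouse 1, against 16.0%, 19.5% and 18.8% of all genes, and 13 to 23 without any other mouse, against 20.7% to 25.1%. With a batch term instead of surrogate variables, 22 genes (46.8%) were called in spleen, all higher, against 20.1% of all genes, and 25 (53.2%) in lymph node, all higher, against 32.8% of all. With mouse number as a block instead, 25 genes were called in spleen, 15 of them of base and lid and all higher, against 21.7% of all genes. The 8 genes called higher in spleen by the fit with surrogate variables were among them, as were Psmb1, Psmb7, Psmc2 and Psmd14, while Psme1 and Psme2 were not called. With batch and the mean levels of the salivary gland, pancreas, and fat and muscle lists as covariates, 25 genes were called in spleen and 17 in lymph node, against 23.3% and 16.5% of all genes. Without the 4 arrays with pancreas genes 8 were called in spleen and 11 in lymph node, against 11.9% and 17.2% of all genes, and without the 7 node arrays with genes of the other tissues 27 and 9, against 26.7% and 15.0%. Within batch A 23 genes were called in spleen and 2 in lymph node, against 13.9% and 16.6% of all genes. Within batch B 3 were called in spleen and 17 in lymph node, against 8.42% and 20.1% of all genes.

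**Figure D2:**
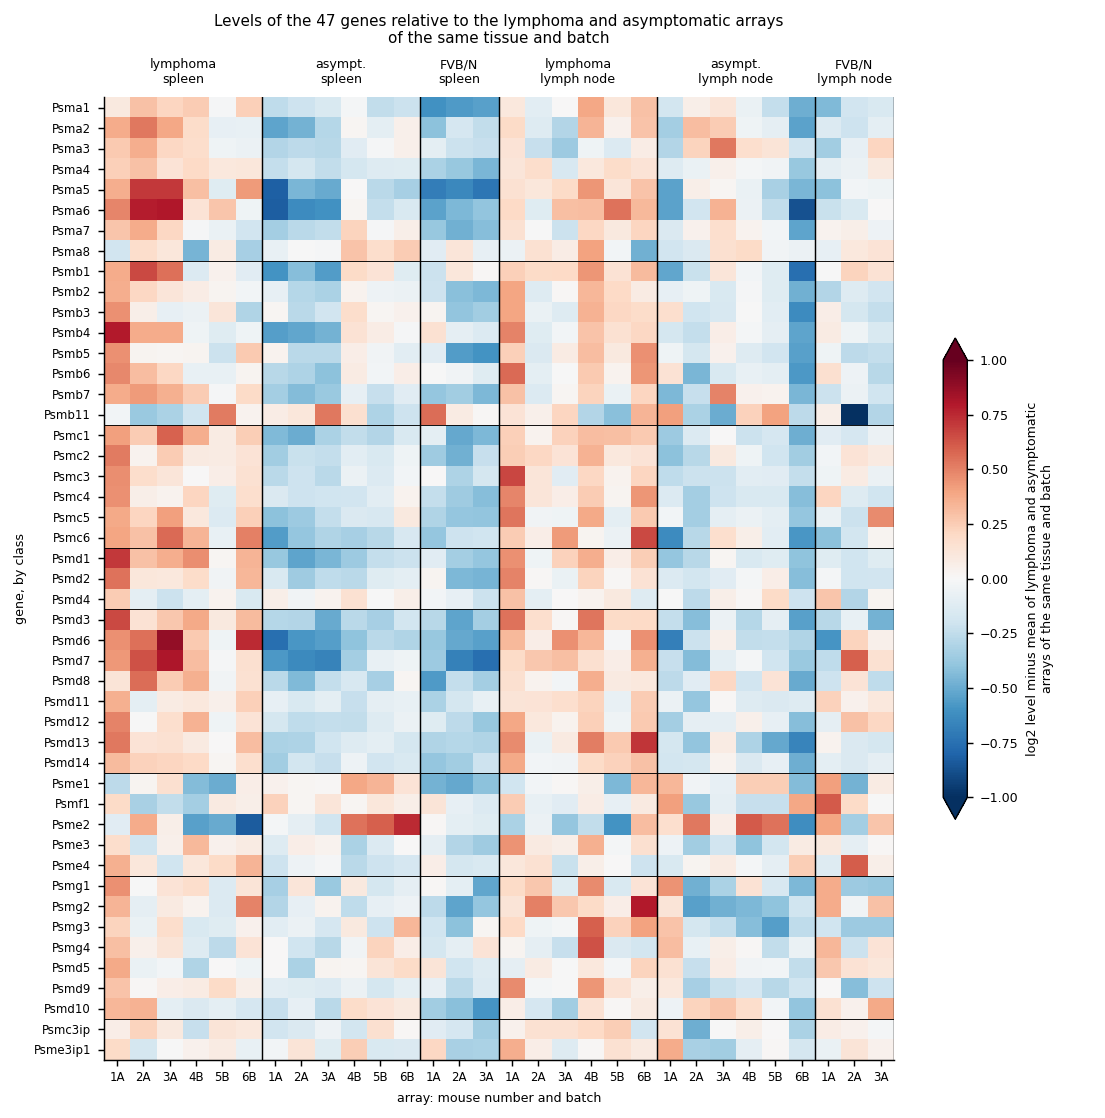
Level of each of the 47 genes (rows, by class) on each of the 30 arrays (columns, mouse number and batch), as the log2 level minus the mean of the lymphoma and asymptomatic arrays of the same tissue and batch. Red is higher and blue lower, and the colour stops at 1 unit. Base and lid rows (Psmc1 to Psmd14, except Psmd4) are mostly red in lymphoma and blue in asymptomatic columns, and the contrast in spleen is stronger in batch A (mice 1 to 3) than in batch B.

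Among the core alpha genes Psma5 and Psma6, which form part of the outer rings that gate the barrel, were called higher in lymphoma spleens, and Psma6 in lymphoma nodes too. The level of Psma6 was 9.83 to 10.81 with a median of 10.32 in lymphoma spleens, against 9.18 to 9.89 with a median of 9.51 in asymptomatic spleens and 9.48, 9.56 and 9.62 in the FVB/N spleens. In the nodes it was 9.86 to 10.48 with a median of 10.25 with lymphoma, against 9.07 to 10.32 with a median of 9.74 without, and 9.76, 9.82 and 9.98 in FVB/N nodes. 1 asymptomatic spleen and 2 asymptomatic nodes reached into the lymphoma range. The fit gave a difference of 0.77 ± 0.16 (SE; adjusted p = 0.0017) in spleen and 0.54 ± 0.18 (SE; adjusted p = 0.033) in lymph node. Within batches the measured difference in spleen was 1.38 in batch A and 0.25 in batch B, and the node call was lost without asymptomatic mouse 1, 4 or 5 (adjusted p up to 0.202). Psma5 had fitted differences of 0.52 (adjusted p = 0.00974) in spleen and 0.36 (adjusted p = 0.0924) in lymph node, where its groups did not overlap, and its spleen call was lost without lymphoma mouse 1 (adjusted p = 0.0659). The other probe set of Psma5 had fitted differences of 0.55 in spleen and 0.04 in lymph node, where its measured difference was 0.36. The other alpha genes, Psma1 to Psma4, Psma7 and Psma8, were not called, with fitted differences of -0.13 to 0.23 in spleen and -0.05 to 0.19 in lymph node.

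None of the core beta genes was called in spleen, and Psmb1, a beta subunit without a cutting site, was called in lymph node. Psmb1 levels followed the batch. In batch A they were 8.99, 8.95 and 8.95 in lymphoma nodes, against 8.23, 8.53 and 8.87 in asymptomatic and 8.75, 8.98 and 8.90 in FVB/N nodes. In batch B they were 10.41, 10.12 and 10.29 in lymphoma nodes, against 9.95, 9.85 and 9.22 in asymptomatic nodes. Within either batch all lymphoma nodes were above the asymptomatic ones, and the fitted difference was 0.39 ± 0.13 (SE; adjusted p = 0.0295), which was not called without surrogate variables (0.51, adjusted p = 0.346) or without asymptomatic mouse 1, 2 or 4. In spleen the measured difference of Psmb1 was 1.05 in batch A and -0.14 in batch B, and the fitted one 0.22 (adjusted p = 0.233), which passed when lymphoma mouse 3, 4 or 5 or asymptomatic mouse 6 was left out (up to 0.60).

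The 3 cutting subunits of the constitutive core, Psmb5 (chymotrypsin-like), Psmb6 (caspase-like) and Psmb7 (trypsin-like), were not called in either tissue. Psmb5, whose promoter window above carries the antioxidant element, had levels of 12.36, 11.92 and 11.92 in lymphoma spleens, against 11.94, 11.63 and 11.62 in asymptomatic and 11.79, 11.34 and 11.30 in FVB/N spleens of batch A. In batch B the levels were 9.55, 9.30 and 9.78 in lymphoma and 9.58, 9.48 and 9.41 in asymptomatic spleens. The batches lay apart in spleen, and lymphoma and asymptomatic spleens overlapped within each. In the nodes of batch A they were 12.01, 11.62 and 11.85 with lymphoma, against 11.72, 11.59 and 11.81 in asymptomatic and 11.72, 11.51 and 11.53 in FVB/N mice. In the nodes of batch B they were 9.75, 9.54 and 9.89 with lymphoma, against 9.30, 9.25 and 8.89 in asymptomatic mice. The states overlapped in the nodes of batch A and not in those of batch B. The fitted difference of Psmb5 was 0.07 ± 0.19 (SE; adjusted p = 0.87) in spleen and 0.28 ± 0.21 (SE; adjusted p = 0.371) in lymph node. Psmb6 had levels of 9.95 to 10.47 with a median of 10.29 in lymphoma spleens, against 9.33 to 10.52 with a median of 9.93 in asymptomatic spleens, and 9.73, 9.71 and 9.62 in FVB/N spleens. In the nodes Psmb6 had levels of 9.45 to 10.99 with a median of 10.35 with lymphoma, against 9.09 to 10.47 with a median of 9.83 without, and 9.70, 9.50 and 9.27 in FVB/N mice. The groups overlapped in both tissues, and its fitted differences were 0.09 (adjusted p = 0.738) in spleen and 0.24 (adjusted p = 0.29) in lymph node. Without lymphoma mouse 5 both Psmb5 (0.35) and Psmb6 (0.43) passed in spleen. Of the 14 other settings, 0 called Psmb5 in spleen and 3 in lymph node, and 4 called Psmb6 in each tissue.

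Psmb7 differed most among the 3 in spleen without passing the test. Its levels were 10.14 to 10.43 with a median of 10.36 in lymphoma spleens, against 9.56 to 10.07 with a median of 9.79 in asymptomatic spleens and 9.61, 9.65 and 9.55 in FVB/N spleens. All lymphoma spleens lay above all others. The measured difference was 0.53 and the fitted one 0.25 ± 0.10 (SE; adjusted p = 0.125), and the gene passed with batch as a term (0.53, adjusted p = 0.00449) and without surrogate variables (0.53, adjusted p = 0.0202). In the nodes its levels were 9.83 to 10.68 with a median of 10.32 with lymphoma, 9.51 to 10.50 with a median of 10.23 without and 9.75, 9.91 and 9.77 in FVB/N mice, which overlapped, with a fitted difference of 0.29 (adjusted p = 0.0746). It passed in spleen without lymphoma mouse 2, 4 or 5 or asymptomatic mouse 1, 5 or 6 (up to 0.56), and in lymph node without lymphoma mouse 2, 3 or 5 or asymptomatic mouse 3 or 6 (up to 0.51). The other beta genes, Psmb2 to Psmb4 and Psmb11, were not called, with fitted differences of -0.01 to 0.30 in spleen and -0.42 to 0.33 in lymph node.

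The ATPases of the base, which unfold the substrate, were represented by Psmc1 in spleen and by all but Psmc5 in lymph node. Psmc1, a gene with a CCAAT box in the window above whose product's tail docks on the alpha ring and helps to open it, had levels of 9.27 to 9.62 with a median of 9.46 in lymphoma spleens, against 8.52 to 9.11 with a median of 8.83 in asymptomatic and 8.92, 8.50 and 8.57 in FVB/N spleens. In the nodes the levels were 9.09 to 9.53 with a median of 9.39 with lymphoma, against 8.70 to 9.06 with a median of 8.96 without and 8.94, 8.89 and 9.00 in FVB/N mice. In both tissues every lymphoma array was above every asymptomatic and every FVB/N array. The difference in the fit was 0.55 ± 0.11 (SE; adjusted p = 0.00103) in spleen, where each of the 14 other settings and each of the 12 fits with a mouse left out called it, and 0.42 ± 0.12 (SE; adjusted p = 0.0142) in lymph node, where the call was lost without lymphoma mouse 1 or asymptomatic mouse 1 or 4. The second probe set of Psmc1 had measured differences of 0.58 in spleen and 0.42 in lymph node, against 0.65 and 0.46 for the one used.

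Psmc2 had the smallest adjusted p of the ATPases in lymph node. Its levels there were 8.28, 8.24 and 8.17 with lymphoma, against 7.62, 7.76 and 8.13 in asymptomatic and 8.01, 8.17 and 8.12 in FVB/N nodes in batch A, and 9.30, 9.06 and 9.10 with lymphoma against 8.92, 8.76 and 8.62 without in batch B. Within each batch all lymphoma nodes were above the asymptomatic ones. In the fit the difference was 0.55 ± 0.12 (SE; adjusted p = 0.00114), and leaving out any single mouse kept the call, which was present in 10 of the 14 other settings. In spleen, with levels of 8.38 to 9.01 with a median of 8.91 in lymphoma, 8.01 to 8.83 with a median of 8.43 in asymptomatic and 7.99, 7.87 and 8.13 in FVB/N mice, it was 0.25 (adjusted p = 0.126), and it passed when lymphoma mouse 2, 4 or 5 or asymptomatic mouse 5 or 6 was left out (up to 0.42). Psmc3, Psmc4 and Psmc6 were called in lymph node with fitted differences of 0.43 (adjusted p = 0.0217), 0.38 (adjusted p = 0.0023) and 0.51 (adjusted p = 0.0263). Each of these 3 calls was lost without lymphoma mouse 1, asymptomatic mouse 1 or asymptomatic mouse 4, and that of Psmc6 without asymptomatic mouse 2 too. Of the 14 other settings, 10 called Psmc3, 14 Psmc4 and 9 Psmc6. In spleen they ran from 0.08 to 0.33 and were not called.

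Of the other base subunits Psmd1, the large scaffold that carries the ubiquitin receptor Adrm1 and through it Uchl5, was called in both tissues. Its levels were 9.43 to 10.51 with a median of 9.98 in lymphoma spleens, against 9.05 to 9.42 with a median of 9.23 in asymptomatic spleens and 9.69, 9.46 and 9.41 in FVB/N spleens. The nodes had 9.66 to 10.16 with a median of 9.91 with lymphoma, against 9.23 to 9.72 with a median of 9.45 without and 9.58, 9.50 and 9.58 in FVB/N mice. In spleen the lymphoma arrays lay above all asymptomatic arrays but not above all FVB/N arrays, and in lymph node 1 asymptomatic array reached into the lymphoma range. The fitted difference was 0.54 ± 0.10 (SE; adjusted p = 0.000668) in spleen and 0.57 ± 0.12 (SE; adjusted p = 0.000757) in lymph node. The spleen call was present in all 14 other settings and with any mouse left out, and the node call was lost without lymphoma mouse 1 or asymptomatic mouse 1 or 4 (adjusted p up to 0.0982). Psmd2, the scaffold on which shuttle receptors and Usp14 dock, had fitted differences of 0.23 (adjusted p = 0.174) and 0.25 (adjusted p = 0.159) in spleen and lymph node. Psmd4, a ubiquitin receptor, had the smallest of the base, -0.04 in spleen and 0.08 in lymph node.

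The lid held the largest called differences of the regulatory particle. Psmd6, a structural lid subunit, had levels of 9.19 to 10.14 with a median of 9.77 in lymphoma spleens, against 8.51 to 8.96 with a median of 8.77 in asymptomatic spleens and 8.88, 8.75 and 8.72 in FVB/N spleens. In lymph node they were 9.21 to 9.87 with a median of 9.54 with lymphoma, against 8.46 to 9.20 with a median of 9.14 without and 8.55, 9.37 and 9.20 in FVB/N mice. All lymphoma arrays were above all asymptomatic arrays of the tissue, whereas 1 FVB/N node lay inside the lymphoma range. The fitted value of the difference was 0.65 ± 0.15 (SE; adjusted p = 0.00377) in spleen and 0.79 ± 0.17 (SE; adjusted p = 0.00118) in lymph node, and no call was lost when a mouse was left out.

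Psmd3, another structural lid subunit, had the smallest adjusted p of all 47 genes in lymph node. Its levels were 8.78 to 9.49 with a median of 9.15 in lymphoma nodes, against 8.34 to 8.87 with a median of 8.60 in asymptomatic nodes and 8.48, 8.69 and 8.29 in FVB/N nodes. The spleens had 9.00 to 9.51 with a median of 9.19 with lymphoma, against 8.35 to 8.75 with a median of 8.59 without and 8.58, 8.33 and 8.51 in FVB/N mice. The states were separate in spleen, and in lymph node 1 lymphoma array lay within the asymptomatic range. Fitted over all arrays, the difference was 0.61 ± 0.12 (SE; adjusted p = 0.000384) in lymph node and 0.42 ± 0.11 (SE; adjusted p = 0.00613) in spleen. Calls were lost without lymphoma mouse 1 in both tissues and without asymptomatic mouse 4 in lymph node (adjusted p up to 0.116).

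Psmd14 is the deubiquitinase of the lid, the enzyme that cuts the ubiquitin chain off the substrate. Its levels were 10.42 to 10.94 with a median of 10.53 in lymphoma nodes, against 9.75 to 10.60 with a median of 10.27 in asymptomatic nodes and 10.47, 10.42 and 10.48 in FVB/N nodes. In spleen they were 11.13, 11.05 and 11.03 with lymphoma, against 10.47, 10.63 and 10.58 in asymptomatic and 10.42, 10.47 and 10.60 in FVB/N mice in batch A, and 10.31, 10.13 and 10.28 with lymphoma against 10.06, 9.92 and 9.96 without in batch B. Within each batch all lymphoma spleens were above the asymptomatic ones, and the pooled groups overlapped. The fit gave a difference of 0.39 ± 0.13 (SE; adjusted p = 0.0272) in lymph node, lost without lymphoma mouse 1 or asymptomatic mouse 1 or 4 and in 7 of the 14 other settings, and 0.27 ± 0.11 (SE; adjusted p = 0.112) in spleen, where it passed without lymphoma mouse 2 or 5 or asymptomatic mouse 5 or 6 (up to 0.45). Its partner Psmd7 was called in both tissues, with fitted differences of 0.54 (adjusted p = 0.0383) in spleen and 0.65 (adjusted p = 0.017) in lymph node. Measured differences of Psmd7 in spleen were 1.25 in batch A and 0.31 in batch B, and its calls were lost without lymphoma mouse 1 or asymptomatic mouse 2 or 3 in spleen and without asymptomatic mouse 2 or 4 in lymph node. Of the 14 other settings, 12 called Psmd7 in spleen and 7 in lymph node. Psmd12 and Psmd13 were called in lymph node and not in spleen (0.46, adjusted p = 0.00151, and 0.58, adjusted p = 0.0103), both lost without lymphoma mouse 1 or asymptomatic mouse 4, and further without asymptomatic mouse 1 for Psmd12 and mouse 2 for Psmd13. Psmd12 is the lid gene with an antioxidant element in the window above. Psmd8 and Psmd11 were called in neither tissue, with fitted differences of 0.17 to 0.32.

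**Figure D3:**
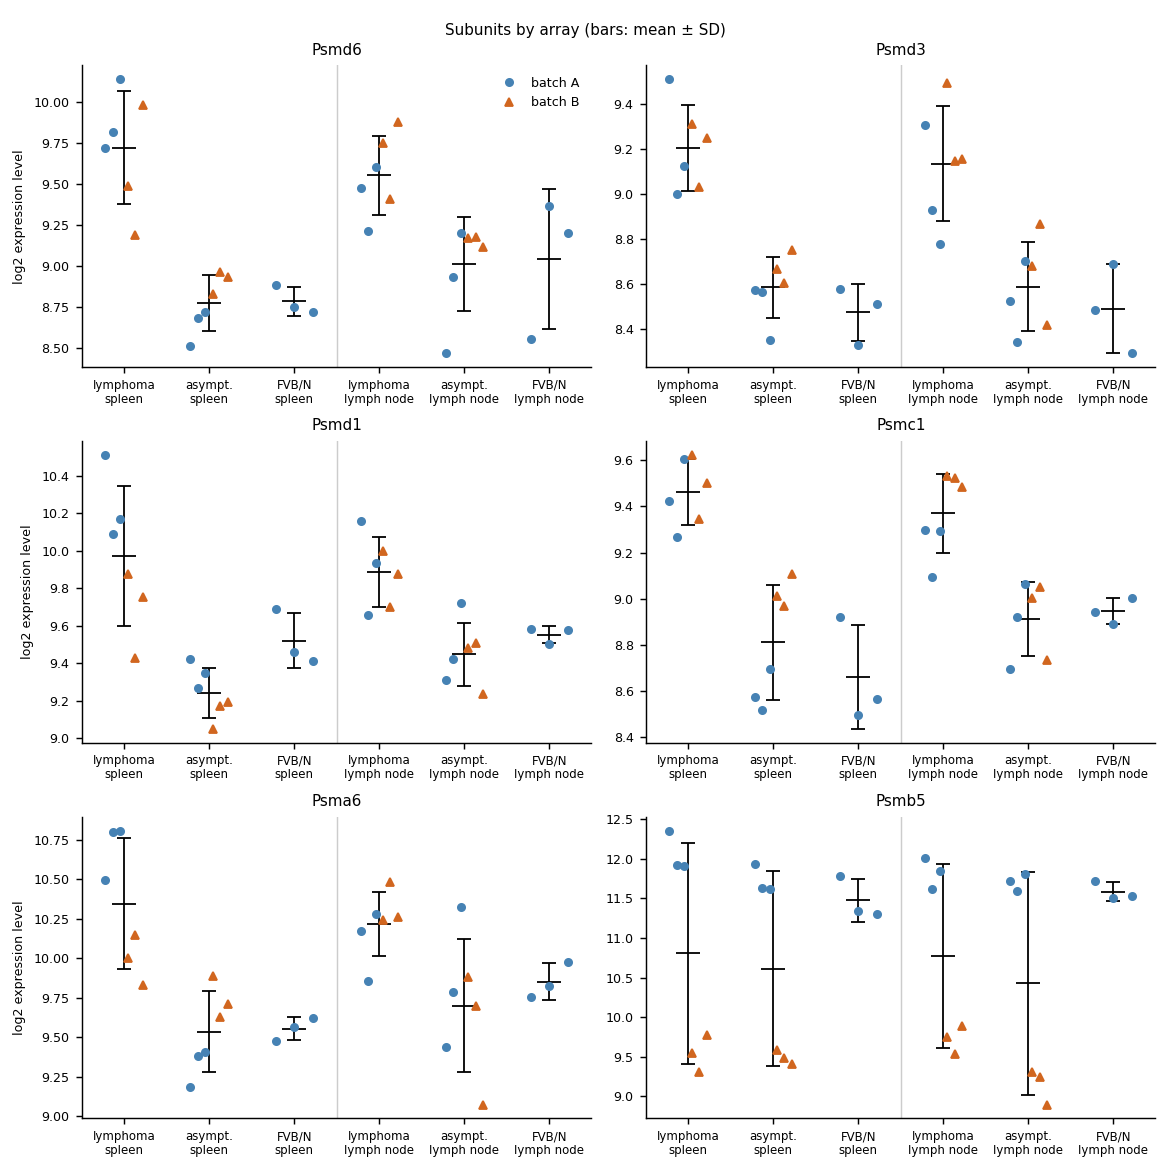
Log2 level (y axis) of 3 lid or base scaffold genes (Psmd6, Psmd3, Psmd1), the ATPase gene Psmc1, and the core genes Psma6 and Psmb5 on each array of the 6 groups. Circles are batch A, triangles batch B, bars the mean ± SD; lymphoma arrays of Psmc1 lie above all others of their tissue, and Psmb5 lies above 11 on every batch A array and below 10 on every batch B array.

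The interferon-inducible activator is built of Psme1 and Psme2, and both were called lower with lymphoma in both tissues. Psme1, whose window above holds the interferon motif, had levels of 9.58 to 10.58 with a median of 10.02 in lymphoma spleens, against 9.86 to 10.90 with a median of 10.27 in asymptomatic spleens and 9.37, 9.34 and 9.43 in FVB/N spleens. In the nodes they were 9.60 to 10.89 with a median of 9.96 with lymphoma, against 9.72 to 10.80 with a median of 10.13 without and 10.22, 9.33 and 9.89 in FVB/N mice. The groups overlapped widely. The fitted difference was -0.56 ± 0.11 (SE; adjusted p = 0.0011) in spleen and -0.66 ± 0.13 (SE; adjusted p = 0.000444) in lymph node, against measured differences of -0.31 and -0.09. Without surrogate variables these did not pass (-0.31, adjusted p = 0.511, in spleen and -0.09, adjusted p = 0.818 in lymph node), nor with batch as a term (-0.31, adjusted p = 0.17, and -0.09, adjusted p = 0.675). The spleen value was -0.02 (adjusted p = 0.918) without lymphoma mouse 5, and the node call was lost without lymphoma mouse 2 or 5. Of the 14 other settings, 2 called Psme1 in spleen and 3 in lymph node.

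Psme2 had levels in spleen of 10.13, 10.61 and 10.30 with lymphoma, against 10.23, 10.15 and 10.04 in asymptomatic and 10.26, 10.15 and 10.12 in FVB/N mice in batch A. In batch B they were 8.96, 9.00 and 8.67 with lymphoma and 10.04, 10.10 and 10.25 without. The lymphoma spleens were below the asymptomatic ones in batch B, with a measured difference of -1.25 (adjusted p = 0.0266), and in batch A it was 0.21 (adjusted p = 0.551). In the nodes the levels were 8.88 to 10.21 with a median of 9.83 with lymphoma, against 8.86 to 10.80 with a median of 10.21 without and 10.66, 9.93 and 10.54 in FVB/N mice, which overlapped. The difference in the fit was -0.84 ± 0.24 (SE; adjusted p = 0.0166) in spleen and -0.95 ± 0.26 (SE; adjusted p = 0.0102) in lymph node, and neither passed without surrogate variables (-0.52, adjusted p = 0.305, and -0.43, adjusted p = 0.309). The spleen call was lost without lymphoma mouse 1, 3 or 5 or asymptomatic mouse 6 (as small as -0.18), and the node call without lymphoma mouse 1, 2, 3 or 5 or asymptomatic mouse 2 or 6. Psme2 was called in 6 of the 14 other settings in spleen and in 4 in lymph node. One probe set shared by Psme2 and Psme2b was not used. Unlike the window of Psme1, the windows of Psme2 do not hold the interferon motif.

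Psme3, the nuclear relative of that activator, was called higher in lymph node. Its levels were 9.69 to 10.45 with a median of 10.07 in lymphoma nodes, against 9.31 to 9.95 with a median of 9.73 in asymptomatic nodes and 10.10, 9.91 and 10.02 in FVB/N nodes, and 9.63 to 10.40 with a median of 9.96 in lymphoma spleens, against 9.28 to 10.28 with a median of 9.84 in asymptomatic and 10.12, 9.93 and 9.86 in FVB/N spleens. The groups overlapped in both tissues. In the fit the difference was 0.52 ± 0.11 (SE; adjusted p = 0.00141) in lymph node, lost without lymphoma mouse 1 or asymptomatic mouse 1 or 4 and in 8 of the 14 other settings, and 0.16 (adjusted p = 0.323) in spleen. Psme4, the activator of the core in nuclei and germ cells, had levels of 9.18 to 9.74 with a median of 9.45 in lymphoma spleens, against 8.95 to 9.38 with a median of 9.11 in asymptomatic spleens and 9.45, 9.21 and 9.23 in FVB/N spleens. In the nodes its levels were 9.07 to 9.61 with a median of 9.31 with lymphoma, against 9.19 to 9.54 with a median of 9.39 in asymptomatic and 9.33, 10.06 and 9.52 in FVB/N mice. The groups overlapped and it was not called (0.27, adjusted p = 0.165, in spleen and 0.24, adjusted p = 0.238 in lymph node). In spleen it passed without lymphoma mouse 2, 3 or 4 (up to 0.37) and in 2 of the 14 other settings. The inhibitor Psmf1 was not called either (-0.01 and 0.12).

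**Figure D4:**
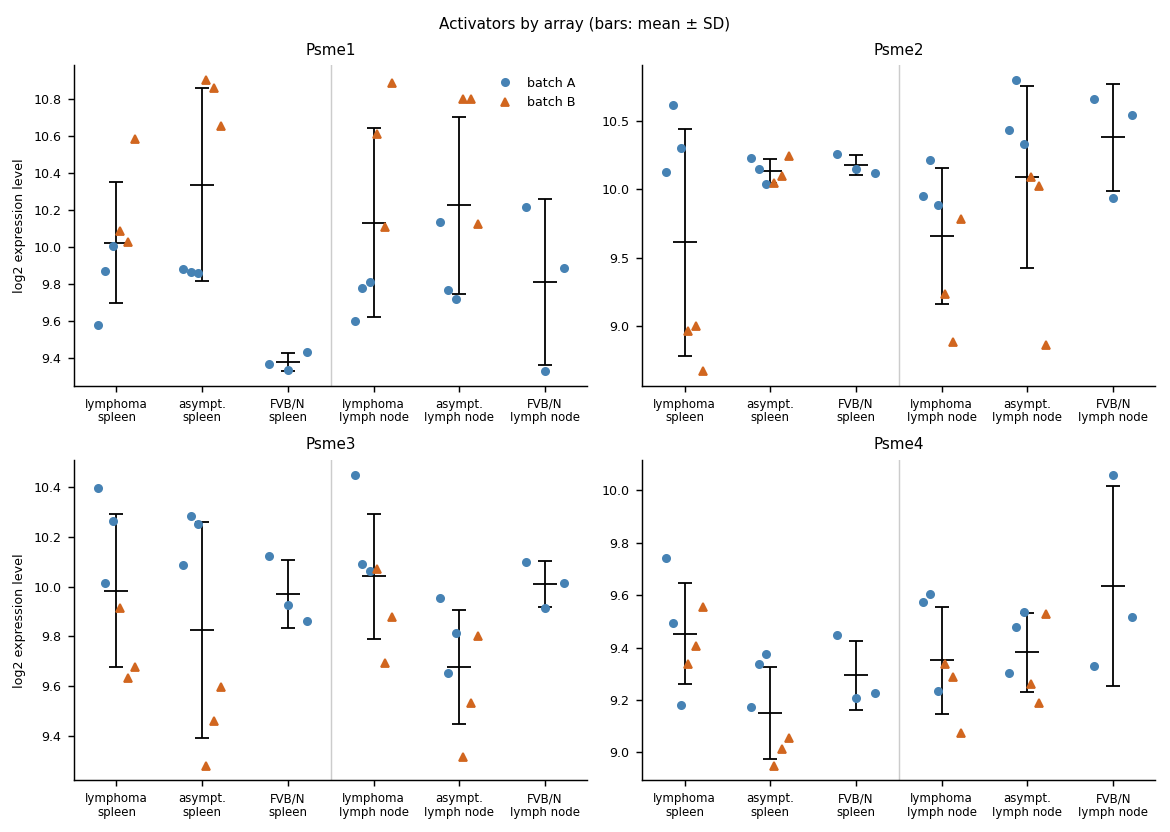
Log2 level (y axis) of the activator genes Psme1, Psme2, Psme3 and Psme4 on each array of the 6 groups, with circles for batch A, triangles for batch B and bars for the mean ± SD. The 3 lymphoma spleens of batch B are the lowest of all spleens for Psme2, at 8.67 to 9.00, and Psme1 is higher in batch B than in batch A in both Tg26 groups of spleens.

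Of the 7 assembly chaperones 1 was called in each tissue. Psmd9, which escorts ATPases into the base, was called higher in spleen. Its levels were 7.73 to 8.00 with a median of 7.86 in lymphoma spleens, against 7.58 to 7.73 with a median of 7.61 in asymptomatic spleens and 7.63, 7.44 and 7.58 in FVB/N spleens. The asymptomatic and lymphoma arrays touched at 7.73. The fitted value of the difference was 0.29 ± 0.10 (SE; adjusted p = 0.0461), lost without lymphoma mouse 1, 3, 5 or 6 or asymptomatic mouse 1, 2 or 3 (adjusted p up to 0.112) and in 10 of the 14 other settings. In the nodes, with 7.46 to 7.99 with a median of 7.65 in lymphoma, 7.15 to 7.59 with a median of 7.31 in asymptomatic and 7.48, 7.06 and 7.28 in FVB/N mice, it was 0.26 (adjusted p = 0.0916). There 7 of the 14 other settings called Psmd9, and 0 of the 12 fits with a mouse left out. Psmg2, which guides assembly of the alpha ring, was called in lymph node. Its levels were 8.60 to 9.32 with a median of 8.97 in lymphoma nodes, against 8.08 to 8.90 with a median of 8.26 in asymptomatic nodes and 9.14, 8.73 and 9.06 in FVB/N nodes. Asymptomatic mouse 1 stood among the lymphoma nodes and the other 5 below them. The fitted difference was 0.44 ± 0.16 (SE; adjusted p = 0.0441), called within either batch without surrogate variables (0.60, adjusted p = 0.0339, in batch A and 0.70, adjusted p = 0.033 in batch B) and lost without lymphoma mouse 1 or asymptomatic mouse 2 or 4. In spleen the levels of Psmg2 were 8.52 to 9.44 with a median of 9.09 in lymphoma mice, against 8.40 to 9.14 with a median of 8.71 in asymptomatic and 8.85, 8.58 and 8.72 in FVB/N mice. The groups overlapped, and the fitted difference was 0.16 (adjusted p = 0.523), called without lymphoma mouse 5 (0.44) and in 1 of the 14 other settings. Psmg1, Psmg3, Psmg4, Psmd5 and Psmd10 were called in neither tissue, with fitted differences of -0.19 to 0.21.

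The 2 genes that are no proteasome genes were not called. Psmc3ip, a cofactor of meiotic recombination, had levels of 6.89 to 7.25 with a median of 7.12 in lymphoma spleens, against 6.77 to 7.27 with a median of 6.92 in asymptomatic and 6.84, 6.79 and 6.61 in FVB/N spleens, and its nodes ranged over 6.83 to 7.43 in lymphoma, 6.30 to 7.24 in asymptomatic and 6.77 to 6.86 in FVB/N mice. The groups overlapped. Its fitted differences were 0.21 (adjusted p = 0.19) in spleen and 0.22 (adjusted p = 0.196) in lymph node, where it passed without asymptomatic mouse 1 (0.38). Psme3ip1, a binding partner of Psme3, had levels of 8.32 to 8.96 with a median of 8.53 in lymphoma spleens, against 8.23 to 8.90 with a median of 8.64 in asymptomatic and 8.97, 8.44 and 8.45 in FVB/N spleens, and node levels of 8.16 to 9.08 in lymphoma, 7.97 to 9.08 in asymptomatic and 8.65 to 8.84 in FVB/N mice. These overlapped too. Its fitted differences were 0.04 (adjusted p = 0.904) in spleen and 0.14 (adjusted p = 0.647) in lymph node.

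Over both tissues, 6 genes were called higher in each (Psma6, Psmc1, Psmd1, Psmd3, Psmd6 and Psmd7), 2 lower in each (Psme1 and Psme2), 10 higher in lymph node alone, 2 higher in spleen alone (Psma5 and Psmd9) and 27 in neither. The arrays of the tissues come from the same mice, and the fit held no term for the mouse. No gene of the 47 was called in the direct test of the difference between the tissues, against 0.256% of all genes called higher and 0.316% lower by limma. In that test 4 of 47 had an unadjusted p under 0.05, against 2341 of all 19938 genes. The longer list in lymph node is therefore not shown to be a larger change.

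Asymptomatic Tg26 mice were next set against FVB/N mice, which asks what the transgene does without lymphoma. In spleen 1 of 47 genes was called higher, against 0.306% of all genes, and none lower, against 0.311%. The gene was Psme1, with a fitted difference of 0.50 ± 0.11 (SE; adjusted p = 0.0424) and a measured difference of 0.96. All 6 asymptomatic spleens (9.86 to 10.90) were above the 3 FVB/N spleens (9.34 to 9.43), and within batch A the difference was 0.49 (adjusted p = 1). The call was lost when any 1 of the 9 mice was left out, and 2 of 13 other settings made it. Red pulp and macrophage genes also lay higher in all asymptomatic than in all FVB/N spleens (9.05 to 9.38 against 7.31 to 7.82 for the mean of the red pulp list), and their part in the level of Psme1 was not tested. In lymph node none was called higher, against 1.34% of all genes, and 1 lower, against 0.592%. That gene was Psmg2, with a fitted difference of -0.60 ± 0.15 (SE; adjusted p = 0.0397), -0.51 (adjusted p = 0.488) within batch A, and a call that was lost without asymptomatic mouse 2, 3 or 4 or FVB/N mouse 2 or 3, and 1 of 13 other settings made it. The median fitted difference over the 47 genes was 0.05 in spleen and -0.05 in lymph node, against 0.02 in both over all genes. An unadjusted p under 0.05 was found for 4 and 8 of the 47 genes, against 1503 and 3186 of all 19938 genes.

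Lymphoma mice were also set against FVB/N mice, a comparison that shares its lymphoma arrays with the first and its FVB/N arrays with the second. In spleen 7 of 47 genes were called higher, against 7.10% of all genes, and none lower, against 5.25%. The 3 with the smallest adjusted p were Psmc1 at 0.57 ± 0.14 (SE; adjusted p = 0.00599), Psma5 at 0.69 ± 0.17 (SE; adjusted p = 0.00702) and Psma1 at 0.52 ± 0.13 (SE; adjusted p = 0.00702). Levels of Psma5 were 9.09 to 9.92 with a median of 9.61 in lymphoma spleens against 8.52, 8.57 and 8.49 in FVB/N spleens. Those of Psma1, another alpha subunit, were 10.32 to 11.05 with a median of 10.72 in lymphoma spleens against 10.15, 10.19 and 10.21 in FVB/N spleens. For all 3 genes every lymphoma spleen was above every FVB/N spleen. The call of Psmc1 was lost without FVB/N mouse 3 (adjusted p = 0.0604). The number of calls ran from 2 without FVB/N mouse 3 to 26 without lymphoma mouse 5, and was 3, 4, 16, 11 and 11 without lymphoma mouse 1, FVB/N mouse 2, and lymphoma mouse 2, 3 or 4. These numbers stand without the share of all genes called in the same fits, so they show only how unstable the count was.

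In lymph node 8 of 47 genes were called higher than in FVB/N mice, against 8.59% of all genes, and 1 lower, against 7.98%. The lower one was Psme1, with a fitted difference of -0.72 ± 0.15 (SE; adjusted p = 0.0015) but a measured difference of 0.32, opposite in sign, and within batch A -0.08 (adjusted p = 0.785). The next were Psmd3 at 0.59 ± 0.14 (SE; adjusted p = 0.00415) and Psmd1 at 0.52 ± 0.14 (SE; adjusted p = 0.0112), and for both every lymphoma node was above every FVB/N node. The calls of Psmd3 and Psmd1 were lost without lymphoma mouse 1 or 6 or FVB/N mouse 3, and that of Psme1 without lymphoma mouse 2 or 5 or FVB/N mouse 1. Of the 13 other settings, 13 called Psmd3, 6 Psmd1 and 3 Psme1. The number of calls ran from 1 without lymphoma mouse 1 to 15 without lymphoma mouse 5, and was 2, 5 and 5 without FVB/N mouse 3, lymphoma mouse 6 and FVB/N mouse 1. Here too the share of all genes called in the same fits is not set beside them.

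Lymph node and spleen of the same mice were then compared. In lymphoma mice none of the 47 was called higher in lymph node than in spleen, against 0% of all genes, and none lower, against 0.0552%, by limma, and none had an unadjusted p under 0.05. In asymptomatic mice none was called higher, against 3.36% of all genes, and 1 lower, against 2.26%. This was Psmd12, with a fitted difference of -0.41 ± 0.10 (SE; adjusted p = 0.0194) and levels of 8.89 to 9.61 with a median of 9.14 in lymph node against 9.23 to 9.42 with a median of 9.28 in spleen, which overlapped. With mouse as a fixed block it was -0.07 (adjusted p = 0.715), and the call was lost without asymptomatic mouse 1, 4, 5 or 6. That block gave 3 calls among the 47 genes and a random block 4, all lower in lymph node, against 19.8% and 19.2% of all genes called in either direction. In FVB/N mice 1 was called higher, against 2.14% of all genes, and none lower, against 2.13%. This was Psme1, at 0.83 ± 0.15 (SE; adjusted p = 0.00251), with levels of 10.22, 9.33 and 9.89 in lymph node against 9.37, 9.34 and 9.43 in spleen. FVB/N node 2 lay below the spleens and the other 2 above them. With mouse as a block the difference was 0.43 (adjusted p = 0.133), and without FVB/N mouse 1 the fitted difference was 0.72 (adjusted p = 0.175).

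Other genes that make, feed or regulate the proteasome were counted beside the subunits, 25 of 33 listed having a probe set with a single symbol. With lymphoma 6 were called higher and none lower in spleen, and 9 higher and 2 lower in lymph node. Of all genes 8.58% were called higher and 7.25% lower in spleen, and 11.6% and 12.5% in lymph node. Uchl5 and Ecpas, partners of the regulatory particle, did not overlap between states in either tissue. Uchl5, a deubiquitinase that docks on the base, had levels of 8.87 to 9.81 with a median of 9.39 in lymphoma nodes, against 7.64 to 8.72 with a median of 8.44 in asymptomatic nodes and 7.91, 8.82 and 8.20 in FVB/N nodes. The spleens had 9.01 to 9.51 with a median of 9.24 with lymphoma, against 8.20 to 8.75 with a median of 8.50 in asymptomatic and 8.10, 8.21 and 8.28 in FVB/N mice. Every lymphoma array was above every other array of its tissue. Fitted over all arrays, the difference was 1.24 ± 0.12 (SE; adjusted p = 5.17e-08) in lymph node and 0.44 ± 0.11 (SE; adjusted p = 0.00564) in spleen, against measured differences of 0.98 and 0.76. Ecpas, a scaffold that binds the proteasome, had levels of 9.48 to 10.10 with a median of 9.77 in lymphoma spleens, against 8.77 to 8.94 with a median of 8.86 in asymptomatic and 9.00, 8.84 and 8.88 in FVB/N spleens. Its nodes had 9.42 to 10.05 with a median of 9.83 with lymphoma, against 8.72 to 9.20 with a median of 9.04 without and 9.04, 9.29 and 9.11 in FVB/N mice. Again no lymphoma array overlapped another state. The fitted difference of Ecpas was 0.71 ± 0.12 (SE; adjusted p = 0.000178) in spleen and 0.82 ± 0.13 (SE; adjusted p = 6.19e-05) in lymph node. All settings and left-out mice kept the calls of Uchl5 and Ecpas against asymptomatic mice.

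Usp14, the other deubiquitinase that docks on the base, had levels of 8.95 to 9.51 with a median of 9.34 in lymphoma nodes, against 8.18 to 9.30 with a median of 8.60 in asymptomatic and 8.77, 9.08 and 9.12 in FVB/N nodes. The groups overlapped. Its fitted differences were 0.79 (adjusted p = 0.000841) in lymph node and 0.45 (adjusted p = 0.0417) in spleen, where the spleen call was lost without lymphoma mouse 1 or asymptomatic mouse 2. Pomp, the maturation factor of the core, was called in both tissues (0.38, adjusted p = 0.00678, in spleen and 0.42, adjusted p = 0.00548 in lymph node, lost in lymph node without asymptomatic mouse 4). Sem1, the small lid subunit outside the Psm names, and Nploc4, a cofactor of the unfolding ATPase Vcp, were among those called in spleen (0.47, adjusted p = 0.0193, and 0.28, adjusted p = 0.0208), with calls that were lost without 3 and 4 of the mice. Rad23b, a shuttle that brings ubiquitylated proteins, was called in lymph node (0.56, adjusted p = 0.000554), where its lymphoma levels of 9.77 to 10.03 were all above the asymptomatic 9.34 to 9.74 and overlapped the FVB/N levels of 9.66, 9.96 and 9.70. Nfe2l1, the transcription factor that induces proteasome genes when the proteasome is inhibited, moved the other way. Its levels were 8.33 to 8.98 with a median of 8.78 in lymphoma nodes, against 9.10 to 9.95 with a median of 9.69 in asymptomatic nodes and 9.40, 9.63 and 9.59 in FVB/N nodes. All lymphoma nodes were below all other nodes. The fit gave a difference of -0.74 ± 0.12 (SE; adjusted p = 8.71e-05) in lymph node and, not called, -0.30 (adjusted p = 0.0764) in spleen, with levels of 8.60 to 8.90 with a median of 8.74 in lymphoma, 8.53 to 9.22 with a median of 9.01 in asymptomatic and 9.24, 9.05 and 9.08 in FVB/N spleens.

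**Figure D5:**
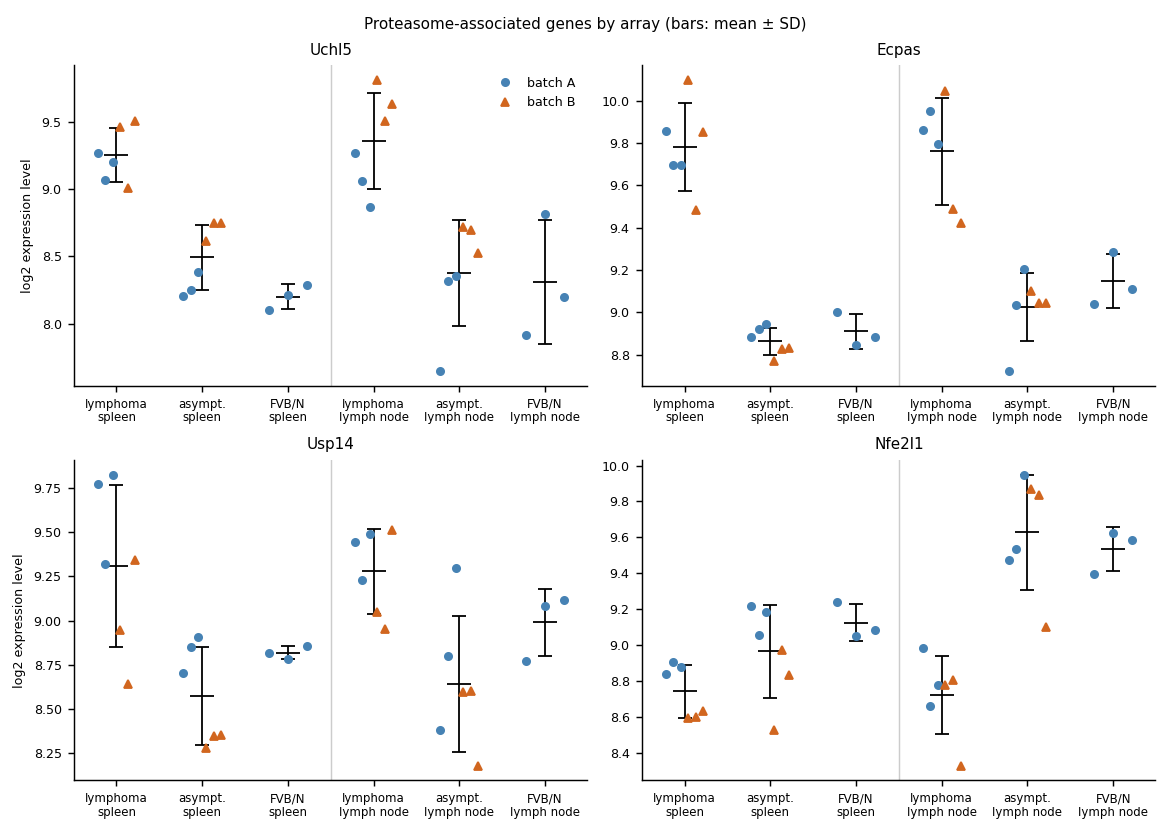
Log2 level (y axis) of Uchl5, Ecpas, Usp14 and Nfe2l1 on each array of the 6 groups, with circles for batch A, triangles for batch B and bars for the mean ± SD. Lymphoma arrays lie above all others of their tissue for Uchl5 and Ecpas, and lymphoma nodes lie below all other nodes for Nfe2l1.

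The immunoproteasome genes, set beside the constitutive ones, were not called in spleen, with fitted differences of -0.19 for Psmb8, -0.34 for Psmb9 and -0.42 for Psmb10. In lymph node Psmb10 was called lower (-0.57 ± 0.18, SE; adjusted p = 0.0215, measured difference -0.24), with levels of 8.55 to 9.34 with a median of 9.22 in lymphoma nodes, against 9.10 to 9.39 with a median of 9.37 in asymptomatic and 9.68, 8.67 and 9.22 in FVB/N nodes, which overlapped. Psmb8 and Psmb9 were not called (-0.08 and -0.36). The call of Psmb10 was not tried under other settings or with a mouse left out. The mean level of the 7 interferon response genes measured ran over 6.58 to 8.52 in lymphoma, 7.35 to 7.69 in asymptomatic and 7.25 to 7.29 in FVB/N spleens, and over 6.73 to 8.82 in lymphoma, 7.47 to 8.38 in asymptomatic and 7.50 to 8.11 in FVB/N nodes. Its part in the levels of Psme1, Psme2 and Psmb10 was not tested.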

How the data were processed

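Levels were the log2 expression values per probe set that the authors deposited, after frozen robust multiarray normalization (fRMA), per the series' design text. No version is given in the sources used here. The table held 35557 probe sets on 30 arrays, 1 of them without values, with array medians of 6.67 to 6.89. The platform annotation gave 1 symbol to 21789 probe sets and several to 1621, which were not used. The probe set with the highest mean stood for each of 19938 genes. All 47 members matched RefSeq. The number of arrays limits the precision.

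All 6 groups of state and tissue were fitted together in limma 3.58.1 (R 4.3.3) with 6 surrogate variables (5 iterations, 20 permutations, p limit 0.1, seed 7), since the design text names surrogate variables, and adjusted p-values (Benjamini-Hochberg over all genes) come from this empirical Bayes fit. All tests were two-sided, and the script was tested on simulated data. Arrays of spleen and lymph node come from the same mouse by the labels. Over these 15 pairs the deviations from the group means correlated at -0.01 to 0.68 (median 0.33, 12 pairs over 0.1). Same-numbered mice of different states are different animals, but the labels tie their numbers to the batch. All 6 pairs of lymphoma and asymptomatic spleens correlated (0.23 to 0.50), and a count with mouse number as a block stands beside that comparison. Same-numbered mice share a batch, and mice of different number within a batch were not compared. The correlation therefore does not show that the number pairs them. Over all 24 same-numbered pairs the median was 0.14 with 13 over 0.1, and in no other comparison of states were all pairs over 0.1. Mice are separate animals and serve as replicates.

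Values were given for the gene of each class with the smallest adjusted p in either tissue, the 3 cutting subunits, Psmd14, Psme1 to Psme4, the 2 genes that are no proteasome genes, up to 3 called genes in other comparisons and up to 6 pathway genes. Other called genes, with their differences, and Psmb10 were named outside this rule. The members and lists were chosen with earlier results of these data known. Alternatives changed the surrogate variables, scaling, filter, probe set choice, batch, block, arrays and neighbouring-tissue covariates.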

Additional observations from a re-analysis of the deposited data

Results flagged for a closer look

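In 76 groups of 6 arrays tested, 5 had an array far from the others, where chance flags about 1 in 20 groups. The lymphoma spleen of mouse 5 was the lowest of its group for Psmb7 at 10.14, against 10.34 for the nearest. The lymph node of asymptomatic mouse 1 was the lowest for Psmd6 at 8.46, against 8.93 for the nearest, and the highest for Psmg2 at 8.90, against 8.34, and for Psme3ip1 at 9.08, against 8.39. The lymph node of lymphoma mouse 1 was the highest for Psmd14 at 10.94, against 10.54. The cause was not tested in any of them.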

How the results depend on the processing

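The counts of called genes were sensitive to how batch and unknown factors were modelled, and the cause was not tested. The share of all genes called moved between settings too, as given with the counts against asymptomatic mice above. The counts below stand without that share and are no result about the proteasome genes by themselves. For lymphoma against asymptomatic spleens, 10 of the 47 genes became 28 with arrays centred on their medians, 25 with only genes above the median level tested, 25 with batch and 3 neighbouring-tissue lists as covariates, 22 with a batch term, 25 with mouse number as a replicate block, 23 within batch A and 3 within batch B. Of the 17 base and lid genes 5 became 16, 16, 16, 14, 15, 12 and 2 under those settings, 8 without surrogate variables, 9 with mouse as a random replicate block and 9 with only the 2 groups compared. In lymph node 18 became 28 with genes above the median, 2 within batch A and 9 with only the 2 groups, and the 12 base and lid genes became 1 within batch A, 7 within batch B and 6 with the 2 groups. For asymptomatic against FVB/N spleens the 1 call became 0 without surrogate variables, with centred arrays, with the mean of a gene's probe sets, with random block, batch, covariates or mouse number, and within batch A. In lymph node the 1 call became 2 with centred arrays and 0 in the other settings. For lymphoma against FVB/N spleens 7 became 14 without surrogate variables, 15 with centred arrays, 24 with genes above the median, 15 with the random block, 21 with covariates, 19 with batch, 26 within batch A, 21 with mouse number and 19 with the 2 groups. In lymph node 9 became 4 without surrogate variables, with quantile normalization or with the random block, 23 with genes above the median, 3 with covariates, and 1 within batch A or with the 2 groups. The tissue difference gave 1 call within batch B, and 0 in limma's fit of all arrays. Between tissues of asymptomatic mice the 1 call became 3 with genes above the median, 4 with the random and 3 with the fixed replicate block of mouse, and 0 with quantile normalization, centred arrays, probe set means or covariates and within batch A. In FVB/N mice it became 0 without surrogate variables, with covariates, within batch A, with the fixed block and with the 2 groups. Leaving out 4 arrays with pancreas genes or 7 nodes with salivary, fat or muscle genes was chosen after seeing the data. Without the 4, the counts were 11 in lymph node against asymptomatic and 3 in either tissue against FVB/N, and 0 for asymptomatic against FVB/N and for the tissues of asymptomatic mice. Without the 7, they were 27 in spleen (15 of base and lid) and 9 in lymph node against asymptomatic, 21 and 4 against FVB/N, and 0 in the small comparisons. With a mouse left out, calls ran from 5 to 27 in spleen (3 to 15 of base and lid) and 4 to 23 in lymph node (2 to 15) against asymptomatic, 2 to 26 and 1 to 15 against FVB/N, 0 for asymptomatic against FVB/N in spleen and 0 to 1 in lymph node, and 0 to 1 between the tissues in asymptomatic and FVB/N mice. Of 1716 values of named genes under other settings, 5 turned the direction of a called difference. Psme2 was 0.21 in spleen within batch A, Psme1 against FVB/N nodes was 0.32 without surrogate variables, with the random block and with the 2 groups, and Psmd12 between the tissues of asymptomatic mice was 0.0723 within batch B. Of the others 1325 stayed on the same side of the threshold, 17 of them with a changed sign and no call in either setting, 298 lost and 88 gained the call. Among the named genes in lymphoma against asymptomatic spleens, the block of mouse number changed no call other than the 6 given with the counts. Batch A holds 3 mice a group, and depth does not apply to arrays.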
